A study of Mus musculus with 30 samples.

Results

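The interferon regulatory factors (IRFs) were followed in whole lung of C57BL/6 mice through every probe set of the array whose platform symbol is Irf1, Irf2, Irf3, Irf4, Irf5, Irf7, Irf8 or Irf9. This gave 14 probe sets for 8 genes, of 45037 probe sets in all and 34945 that carry a single gene symbol. Probe sets were chosen by symbol alone, with no measured value in the rule. The family and the gene lists used below were chosen with earlier results of these data known.

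RNA came from 30 arrays, 1 animal each, of juvenile (21 days) or adult (16 weeks) mice. Untreated mice that breathed spontaneously were the controls at each age (4 juvenile, 4 adult). Mechanical ventilation (MV) lasted 2 h at a tidal volume of 15 mL/kg with 30% oxygen and an end-expiratory pressure of 2 cm H2O (3 juvenile, 4 adult). Lipopolysaccharide (LPS), a component of the outer membrane of Gram-negative bacteria, was given as an aerosol (20 mL of 0.1 mg/mL, from E. coli) for 30 min, followed by 2 h of spontaneous breathing (4 juvenile, 4 adult). In the LPS+MV groups the same aerosol was followed at once by the same ventilation (3 juvenile, 4 adult). No study period is stated for the controls, and the labels give neither sex nor batch.

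IRFs are transcription factors that share a DNA-binding domain and bind variants of the interferon-stimulated response element (ISRE). IRF3 is present before stimulation and, once phosphorylated downstream of TLR4, nucleic acid sensors and the kinases TBK1 and IKKε, turns on interferon-β and early response genes. IRF7 is an interferon-induced amplifier of type I interferon production, and IRF9 joins STAT2 in the complex that carries the interferon receptor signal to ISREs. IRF1 is itself induced by interferon and NF-kB signalling, and IRF2 binds many of the same elements as an antagonist. IRF5 acts downstream of MyD88 in myeloid cells, and IRF4 and IRF8 are lineage factors of lymphocytes, dendritic cells and macrophages that bind together with PU.1 or BATF.

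The 250 bases upstream of each start site in the RefSeq promoter table (GRCm38.p6; 11 windows for the 8 genes) were searched on both strands for the STAT site TTCNNNGAA (GAS), the ISRE core GAAANNGAAA and the NF-kB site. One window each of Irf1, Irf2 and Irf8 is shown because it holds such matches, and the second windows of Irf1 and Irf8 hold none. Matches are in capitals, on the strand of the gene, read 5′ to 3′. The windows lie at chr11:53769764-53770013, chr8:46739495-46739744 and chr8:120736108-120736357, all on the plus strand.
Irf1: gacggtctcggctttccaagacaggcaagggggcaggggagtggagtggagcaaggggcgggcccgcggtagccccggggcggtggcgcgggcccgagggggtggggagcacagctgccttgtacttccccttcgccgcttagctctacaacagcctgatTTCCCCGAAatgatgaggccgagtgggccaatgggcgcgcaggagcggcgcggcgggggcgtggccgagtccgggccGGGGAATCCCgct
Irf2: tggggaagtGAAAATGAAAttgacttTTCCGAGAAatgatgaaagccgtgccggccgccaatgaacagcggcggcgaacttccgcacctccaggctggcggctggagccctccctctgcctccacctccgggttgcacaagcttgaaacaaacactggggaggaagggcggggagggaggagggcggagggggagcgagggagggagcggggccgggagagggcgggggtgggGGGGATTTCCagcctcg
Irf8: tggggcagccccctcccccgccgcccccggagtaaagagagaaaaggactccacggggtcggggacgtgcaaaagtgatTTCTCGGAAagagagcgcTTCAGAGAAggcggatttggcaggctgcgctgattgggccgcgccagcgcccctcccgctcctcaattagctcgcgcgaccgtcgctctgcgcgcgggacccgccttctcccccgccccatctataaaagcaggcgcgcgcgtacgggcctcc

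In Irf1 the capitals mark a GAS match (TTCCCCGAA) 90 to 82 bases before the start and an NF-kB match (GGGGAATCCC) 13 to 4 bases before it. Irf2 holds an ISRE match (GAAAATGAAA), a GAS match (TTCCGAGAA) and an NF-kB match (GGGGATTTCC). Irf8 holds a pair of GAS matches (TTCTCGGAA and TTCAGAGAA) at 171 to 163 and 153 to 145 bases before the start. The windows of the other 5 genes (Irf3, Irf4, Irf5, Irf7 and Irf9) hold none of these letters. The windows of Irf5 and Irf7, and the second windows of Irf1, Irf8 and Irf9, overlap the span of their own gene in RefSeq. Over all 32851 windows of this length in the table, 7.02% hold a GAS match, 2.98% an ISRE match and 3.9% an NF-kB match. A match describes the letters only.

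Values are the deposited probe set intensity on a linear scale, and fold changes are on the log2(intensity + 32) scale, which understates the change of dim genes. A gene is represented by its probe set with the highest mean. A difference passed when its p-value from limma, adjusted by Benjamini and Hochberg over 13089 genes, was under 0.05. Errors of fold changes are standard errors. Of the 14 probe sets, 12 passed the filter on low values and 2 (1 each of Irf3 and Irf4) did not, and all 8 genes were tested. The probe sets of Irf2 and Irf3 are of types that may also bind related transcripts.

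Array medians lay between 21.6 and 22.8 and upper quartiles between 89.1 and 111.4. Markers of the alveolar type 2 epithelium summed to 38450 to 47650 over the 30 arrays, as the lung label implies. The X-inactivation transcript Xist was high (425.1 to 771.2) on 11 arrays and low (18.2 to 27.0) on 19. Among adults it was high on all 4 MV arrays and on 3 of 4 LPS+MV arrays but on no array without ventilation, so there it moved with ventilation. Among juveniles it was high on 1 control, 1 MV and 2 LPS+MV arrays. A fit with a term for it is given beside each call that it ends. The term is estimated only within groups that hold both patterns, so it cannot tell Xist from ventilation in adult MV against control. Juvenile control 4, juvenile MV 3, juvenile LPS+MV 3 and adult LPS+MV 2 correlated least with their own groups. Calls that end without single arrays are named below with the array. In whole lung, fewer cells of a type and less RNA per cell cannot be told apart.

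**Figure D1:**
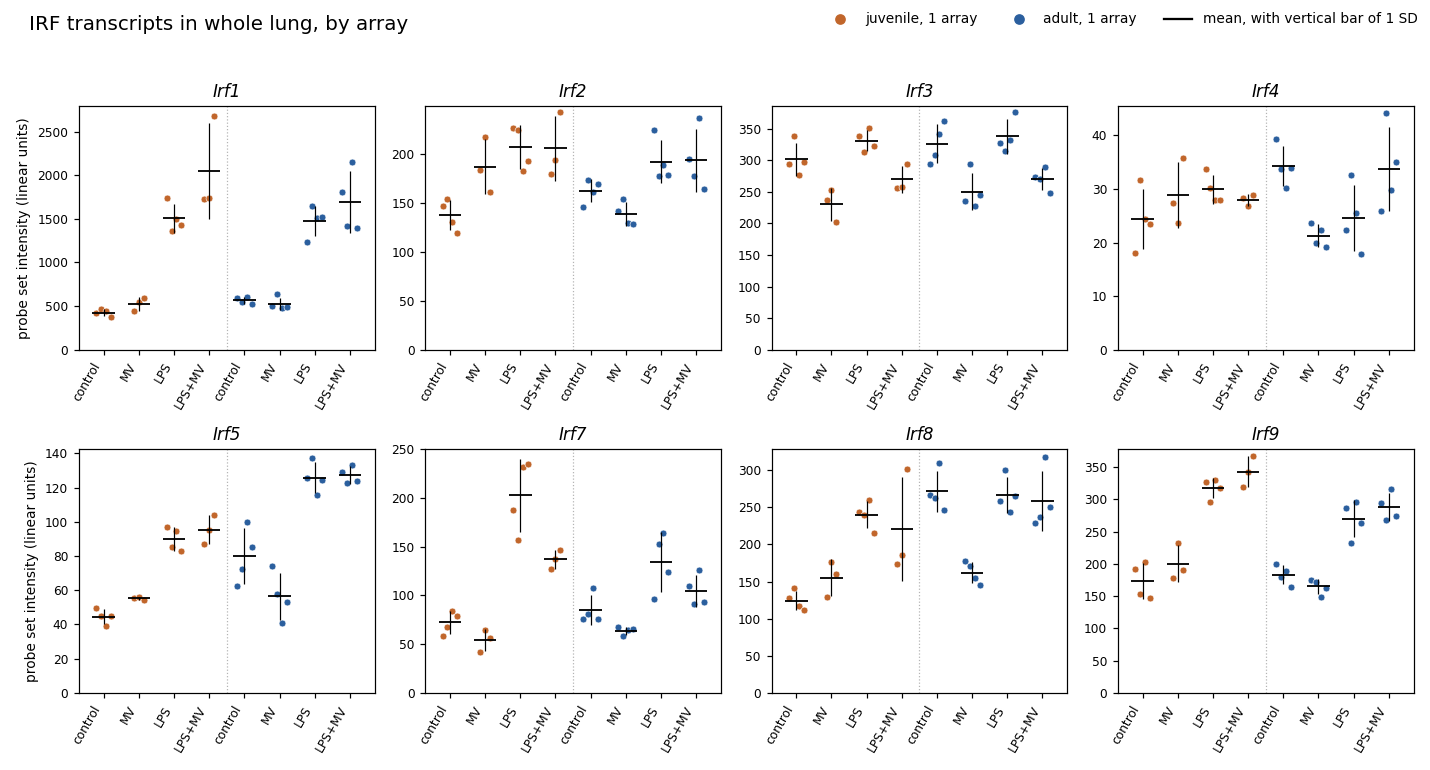
Probe set intensity (linear units, axis from 0) of the 8 IRF genes on each of the 30 arrays, by group, with juvenile mice on the left of each dotted line and adults on the right. Points are single arrays, horizontal lines group means and vertical lines 1 SD; Irf1 on every LPS and LPS+MV array lies above every control and MV array, and Irf8 starts at 111.6 to 140.9 in juvenile and 246.4 to 309.9 in adult controls.

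Irf1 was the IRF gene with the largest rise after LPS at both ages. In juveniles its intensity was 415.5, 468.9, 444.8 and 374.5 in the controls and 1739, 1363, 1494 and 1430 after LPS. In adults it was 592.1, 544.8, 609.5 and 524.5 in the controls and 1233, 1649, 1511 and 1519 after LPS. The groups did not overlap at either age. Irf1 rose by a log2 fold change of 1.75 ± 0.14 in juveniles (adjusted p = 9.0e-11) and of 1.33 ± 0.14 in adults (adjusted p = 2.0e-08).

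With LPS+MV, Irf1 read 1731, 1738 and 2680 in juveniles and 1808, 1422, 2151 and 1392 in adults. The value of 2680 on juvenile LPS+MV 3 was the highest of all 30 arrays. Against control this was a rise of 2.16 ± 0.15 in juveniles (adjusted p = 7.8e-12) and 1.50 ± 0.14 in adults (adjusted p = 1.4e-09). Ventilation without LPS gave 438.6, 552.2 and 593.1 in juveniles and 495.8, 634.6, 481 and 488 in adults, which overlapped the controls. Neither MV change passed (juvenile 0.28 ± 0.15, adjusted p = 0.23; adult -0.11 ± 0.14, adjusted p = 0.57). Ventilation added to LPS gave 0.41 ± 0.15 in juveniles (adjusted p = 0.058) and 0.18 ± 0.14 in adults (adjusted p = 0.46). The juvenile value passed without juvenile LPS 1, juvenile LPS+MV 1 or juvenile LPS+MV 2 and fell to 0.21 without juvenile LPS+MV 3.

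Irf2, the antagonist of IRF1 at shared sites, moved less. It had group means between 137.7 and 207, and only in juveniles did its change against control pass after LPS (0.49 ± 0.10, adjusted p = 6.9e-04) and after LPS+MV (0.48 ± 0.11, adjusted p = 0.0015). Adults gave 0.20 ± 0.10 after LPS (adjusted p = 0.13) and 0.20 ± 0.10 after LPS+MV (adjusted p = 0.11). Adult LPS arrays (177.4 to 224.9) still lay above all adult controls (146.2 to 173.3). The adult LPS value passed with quantile normalization (0.24, adjusted p = 0.049), and the adult LPS+MV value with array weights (0.24, adjusted p = 0.026). The difference between ages did not pass for LPS or LPS+MV (adjusted p = 0.30 and 0.33). With MV alone, Irf2 read 183.3, 217.6 and 161.2 in juveniles against 147, 153.7, 130.6 and 119.3 in their controls, without overlap. In adults it read 141.9, 154.4, 129.3 and 128.6 against 146.2, 173.3, 161.7 and 169.3, with overlap. The juvenile rise was 0.37 ± 0.11 (adjusted p = 0.033), the adult value -0.19 ± 0.10 (adjusted p = 0.16), and the age difference -0.56 ± 0.15 (adjusted p = 0.028).

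Both Irf2 calls with MV were close to the threshold. The juvenile rise ended without juvenile control 3 or 4 or juvenile MV 1 or 2 (0.27 to 0.45 over single arrays left out, adjusted p up to 0.17) and with the compared groups alone (adjusted p = 0.13). The age difference ended without juvenile MV 1 or 2, adult control 2 or adult MV 3 or 4 (-0.65 to -0.46, adjusted p up to 0.11), with quantile normalization (-0.45, adjusted p = 0.055) and with a term for Xist (-0.60, adjusted p = 0.080).

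Irf3, the factor already present in resting cells, was the IRF gene whose fall with ventilation passed at both ages, and it did not pass after LPS at either. Juvenile controls read 294.4, 338.7, 277 and 297.1, and juvenile MV arrays 236.3, 253.1 and 201.7. Adult controls read 294, 307.6, 341.2 and 362.2, and adult MV arrays 235.4, 294, 227.4 and 245.1. All juvenile MV values lay below the controls, and the highest adult MV value (294) stood at the lowest adult control (294). Irf3 fell by 0.35 ± 0.09 in juveniles (log2 change -0.35, adjusted p = 0.012) and by 0.34 ± 0.08 in adults (log2 change -0.34, adjusted p = 0.0022). The age difference was 0.00 ± 0.12 (95% interval -0.24 to 0.25).

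Irf3 was also lower when ventilation followed LPS. LPS alone gave 338.1, 313, 350.5 and 322.6 in juveniles and 327.4, 314.7, 331.9 and 377.2 in adults, near the controls (juvenile 0.12 ± 0.08, adjusted p = 0.31; adult 0.05 ± 0.08, adjusted p = 0.69). LPS+MV gave 256.7, 258 and 294.2 in juveniles and 272.9, 270.5, 289.9 and 248.7 in adults. These lay below every LPS array of their age. The difference of LPS+MV from LPS was -0.27 ± 0.09 in juveniles (adjusted p = 0.038) and -0.29 ± 0.08 in adults (adjusted p = 0.030), and adult LPS+MV lay -0.24 ± 0.08 from control (adjusted p = 0.018).

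The small Irf3 differences depended on single arrays and on the probe set. The juvenile MV call ended without juvenile MV 3 (-0.27, adjusted p = 0.10) and with the compared groups alone in the fit (adjusted p = 0.12), and the juvenile LPS+MV call against LPS ended without juvenile LPS 1, 3 or 4 or juvenile LPS+MV 1 or 2 (-0.33 to -0.24, adjusted p up to 0.13), with no filter (adjusted p = 0.0502) and with the compared groups alone (adjusted p = 0.064). In adults the call against LPS ended without adult LPS 3 or 4 or adult LPS+MV 2 or 4 (-0.32 to -0.24, adjusted p up to 0.10), and that against control without adult control 3 or 4 or adult LPS+MV 4 (-0.29 to -0.19, adjusted p up to 0.079). A term for Xist ended the adult MV call (-0.31, adjusted p = 0.059), both LPS+MV calls against LPS (-0.24, adjusted p = 0.13 in juveniles; -0.26, adjusted p = 0.18 in adults) and the adult call against control (-0.21, adjusted p = 0.098). A second, dimmer Irf3 probe set (56.8 to 126.7) fell in juvenile MV (-0.34 ± 0.10, adjusted p = 0.027) but passed neither in adult MV (-0.20 ± 0.09, adjusted p = 0.096) nor in the LPS+MV comparisons. It gave -0.23 ± 0.10 against LPS in juveniles (adjusted p = 0.11), -0.25 ± 0.09 against LPS in adults (adjusted p = 0.088) and -0.12 ± 0.09 against control in adults (adjusted p = 0.33). The mean over probe sets ended the same 3 LPS+MV calls (-0.20, adjusted p = 0.053; -0.19, adjusted p = 0.065; -0.12, adjusted p = 0.16). Another near the array medians (21.0 to 42.5) passed in neither.

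Irf7, the amplifier of type I interferon, rose after LPS at both ages, more so in juveniles. Juvenile controls read 58.3, 67.9, 84.1 and 79.4, and juvenile LPS arrays 188.2, 156.5, 232 and 234.5. Adult controls read 75.6, 80.7, 108 and 75.4, and adult LPS arrays 96.2, 153, 164.4 and 124.1. The juvenile groups lay far apart, while the lowest adult LPS array fell below the highest adult control. The rise was 1.16 ± 0.13 in juveniles (adjusted p = 4.6e-08) and 0.50 ± 0.13 in adults (adjusted p = 0.0028). Juvenile LPS had the highest group mean, and of the other groups adult LPS alone overlapped its range, adult LPS 3 (164.4) lying above juvenile LPS 2 (156.5).

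The age difference of the Irf7 response to LPS was -0.66 ± 0.18 (adjusted p = 0.034). It kept its sign but did not pass without juvenile control 1 or 2, juvenile LPS 3 or 4, adult control 2 or 3 or adult LPS 1 or 4 (-0.76 to -0.54, adjusted p up to 0.083), with quantile normalization (-0.62, adjusted p = 0.073) or with the compared groups alone (adjusted p = 0.070). With LPS+MV, Irf7 read 126.7, 137.9 and 146.7 in juveniles and 109.6, 90.8, 126.3 and 93.1 in adults. All juvenile values lay between their controls and the LPS arrays. Ventilation added to LPS lowered Irf7 in juveniles (-0.46 ± 0.14, adjusted p = 0.021), a call that ended without juvenile LPS 3 or 4 or juvenile LPS+MV 1 or 2 (-0.56 to -0.40, adjusted p up to 0.079). In adults the same difference was -0.27 ± 0.13 (adjusted p = 0.20). Against control, Irf7 rose in juvenile LPS+MV (0.70 ± 0.14, adjusted p = 2.6e-04), and adult LPS+MV gave 0.23 ± 0.13 (adjusted p = 0.15). MV alone gave -0.27 ± 0.14 in juveniles (adjusted p = 0.20) and -0.28 ± 0.13 in adults (adjusted p = 0.093). Adult MV arrays (58.4 to 67.9) all lay below the adult controls (75.4 to 108). The adult MV value passed with array weights (-0.31, adjusted p = 0.046), the compared groups alone (adjusted p = 0.039) and a replicate block (adjusted p = 0.048).

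Irf9, the DNA-binding subunit of the interferon-activated STAT complex, rose with LPS at both ages whether or not ventilation followed. Its intensity was 191.5, 153.2, 202.2 and 146.5 in juvenile controls, 327.2, 296.3, 330.7 and 316.8 after LPS, and 318.9, 342.5 and 366.7 after LPS+MV. Adults read 199.3, 179.5, 188.6 and 164.3 in controls, 286.9, 232.8, 296.4 and 263.4 after LPS, and 294.6, 267.4, 316.7 and 274.8 after LPS+MV. No LPS or LPS+MV array overlapped a control or MV array of either age, with the exception of adult LPS 2 (232.8) and juvenile MV 2 (232.9). Irf9 rose by 0.78 ± 0.09 after juvenile LPS (adjusted p = 1.4e-07), by 0.49 ± 0.09 after adult LPS (adjusted p = 1.1e-04), by 0.88 ± 0.10 after juvenile LPS+MV (adjusted p = 7.1e-08) and by 0.58 ± 0.09 after adult LPS+MV (adjusted p = 8.9e-06). The age differences of -0.29 ± 0.13 for LPS and -0.30 ± 0.13 for LPS+MV did not pass (adjusted p = 0.23 and 0.21), and MV alone gave 0.18 ± 0.10 and -0.13 ± 0.09 (adjusted p = 0.24 and 0.30).

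Irf5, a factor of myeloid cells, was higher in adult than in juvenile controls and rose with LPS from both starting levels. Juvenile arrays read 49.4, 44.9, 39.3 and 44.7 in controls, 97.1, 85.0, 94.6 and 82.8 after LPS and 87.2, 95.0 and 104 after LPS+MV. Adult arrays read 62.5, 72.4, 99.9 and 85.5 in controls, 125.3, 137.5, 115.6 and 124.4 after LPS and 129.3, 122.6, 133.4 and 123.8 after LPS+MV. Every adult LPS or LPS+MV value lay above every juvenile one. The rise was 0.67 ± 0.09 in juveniles (adjusted p = 2.0e-06) and 0.50 ± 0.09 in adults (adjusted p = 8.7e-05) after LPS, and the age difference did not pass (-0.17 ± 0.13, adjusted p = 0.55). LPS+MV gave 0.73 ± 0.10 and 0.52 ± 0.09 (adjusted p = 1.7e-06 and 4.1e-05).

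With MV alone, the Irf5 values of both ages had opposite signs. It read 55.5, 56.1 and 54.0 in juveniles, above all their controls, and 74.1, 57.9, 41.1 and 53.0 in adults, which overlapped theirs. The juvenile change did not pass (0.19 ± 0.10, adjusted p = 0.22), the adult fall did (-0.34 ± 0.09, adjusted p = 0.0051), and so did the age difference (-0.53 ± 0.13, adjusted p = 0.018). A term for Xist ended both (adult -0.34, adjusted p = 0.058; age difference -0.53, adjusted p = 0.074). The compared groups alone also ended both (adjusted p = 0.056 and 0.071), and the mean over the Irf5 probe sets cut the age difference to -0.23 (adjusted p = 0.081). Leaving out juvenile MV 2 ended the age difference (adjusted p = 0.051; -0.62 to -0.44 over the 15 arrays left out singly). The other Irf5 probe set, at 23.8 to 38.6 close to the array medians, passed in no comparison of a treatment with control.

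Irf8, a factor of monocytes, macrophages, dendritic cells and B cells, differed most between the ages. Juvenile controls read 127.5, 140.9, 116.9 and 111.6 and adult controls 266.3, 262.7, 309.9 and 246.4, with no overlap. The adult level was higher by 0.96 ± 0.12 (adjusted p = 1.5e-06). After LPS, juveniles read 244.1, 239.7, 259.9 and 216 and adults 258.2, 300.1, 244.1 and 264.6. Juvenile LPS arrays thus reached the range of the adult arrays, while the adult LPS arrays overlapped their controls. Irf8 rose in juveniles (0.80 ± 0.12, adjusted p = 7.9e-06). In adults the value was -0.02 ± 0.12 (adjusted p = 0.91), with a 95% interval of -0.26 to 0.22 that leaves out the juvenile value. The age difference was -0.82 ± 0.17 (adjusted p = 0.0044) and passed under every alternative setting and without any single array, apart from the dimmer probe set taken alone.

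With ventilation alone, the Irf8 ranges of both ages overlapped, from control levels that did not. Juvenile MV arrays read 128.7, 176.7 and 160.6 and adult MV arrays 177.2, 170.3, 154.7 and 145.4. The juvenile values overlapped the top of their controls, and the adult values all lay far below theirs. Irf8 fell in adult MV by 0.64 ± 0.12 (log2 change -0.64, adjusted p = 2.0e-04), juveniles gave 0.26 ± 0.13 (adjusted p = 0.20), and the age difference was -0.90 ± 0.17 (adjusted p = 0.0035). The adult fall and the age difference passed under every alternative setting and without any single array. The Xist term was among these settings, but it cannot tell Xist from ventilation in adult MV against control.

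With LPS+MV, Irf8 read 173.6, 186.4 and 301.4 in juveniles and 229.5, 236.6, 318 and 250.3 in adults. The juvenile value of 301.4, on array 3, lay far above the other two. Juveniles rose by 0.66 ± 0.13 against control (adjusted p = 2.4e-04), adults gave -0.07 ± 0.12 (adjusted p = 0.69), and the age difference was -0.73 ± 0.17 (adjusted p = 0.026). That difference ended without juvenile control 1, juvenile LPS+MV 3, adult control 3 or adult LPS+MV 1 or 2 (-0.86 to -0.51, adjusted p up to 0.086), with the compared groups alone (adjusted p = 0.10) and without the 4 arrays that stood apart (-0.44, adjusted p = 0.11). Against MV alone, LPS+MV raised Irf8 in juveniles by 0.40 ± 0.14 (adjusted p = 0.044), which ended without juvenile MV 1 or 3 or juvenile LPS+MV 3 (0.19 to 0.54, adjusted p up to 0.39), with no filter (adjusted p = 0.058), with the compared groups alone (adjusted p = 0.25) and with a term for Xist (0.37, adjusted p = 0.086). In adults it was higher by 0.58 ± 0.12 (adjusted p = 6.4e-04). Against LPS alone, juvenile LPS+MV gave -0.14 ± 0.13 (adjusted p = 0.52). Without juvenile LPS+MV 3 this was -0.36 ± 0.12 (adjusted p = 0.049), with array weights -0.31 ± 0.11 (adjusted p = 0.032), and in the dimmer probe set it had the other sign (0.27 ± 0.12, adjusted p = 0.14).

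**Figure D2:**
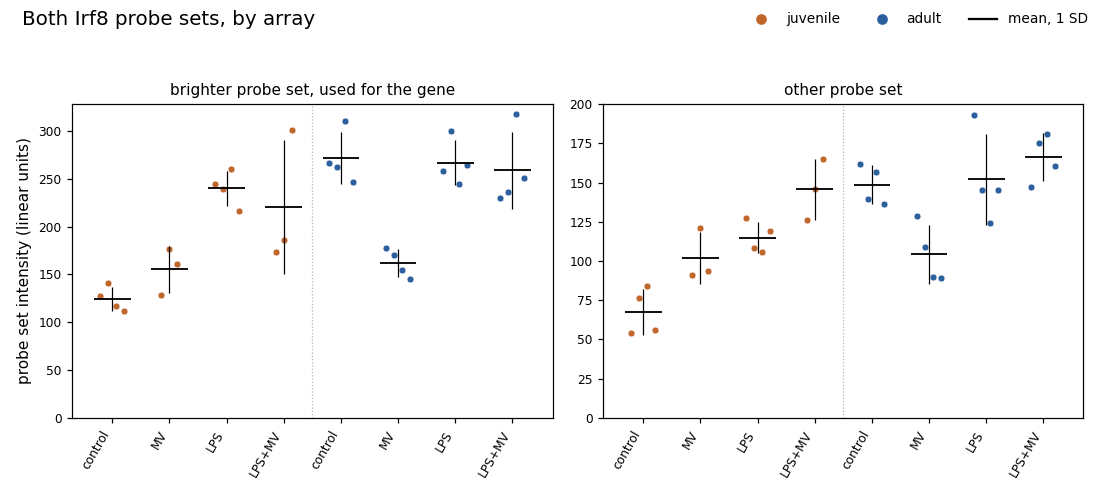
Intensity (linear units, axis from 0) of both Irf8 probe sets on each array by group; points are arrays, horizontal lines means and vertical lines 1 SD. In both, adult controls lie above all juvenile controls and adult MV arrays below all adult controls.

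The second Irf8 probe set was read as a row of its own. It gave 54.1, 76.4, 84.0 and 56.2 in juvenile controls and 161.9, 139.6, 156.8 and 136.7 in adult controls. Juvenile LPS arrays read 127.2, 108.3, 105.5 and 118.9, adult LPS arrays 193.3, 145.2, 124.4 and 145.3, and adult MV arrays 128.5, 109.2, 89.7 and 89.4. The order of groups resembled that of the brighter probe set, but the juvenile LPS arrays stayed below all adult controls. Its adult MV value was -0.42 ± 0.11 (adjusted p = 0.0071), its age difference for MV -0.85 ± 0.17 (adjusted p = 0.0040) and for LPS+MV -0.71 ± 0.17 (adjusted p = 0.029). The age difference for LPS was -0.55 ± 0.16 and missed the threshold (adjusted p = 0.056). In juvenile MV, where the brighter probe set did not pass, it read 91.0, 121.1 and 93.8, above all controls, and rose by 0.43 ± 0.12 (adjusted p = 0.024).

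Irf4, the lymphocyte and plasma cell factor, was dim throughout. Its 30 values ran from 17.9 to 44.2, around the array medians, so its fold changes carry much background. Adult controls read 39.4, 33.7, 30.3 and 33.9, adult MV arrays 23.7, 19.9, 22.3 and 19.1, and adult LPS arrays 22.3, 32.6, 25.5 and 17.9. The MV arrays lay below all controls, and the LPS arrays overlapped them. Irf4 fell in adult MV (-0.32 ± 0.08, adjusted p = 0.0036) and in adult LPS (-0.23 ± 0.08, adjusted p = 0.023), the latter not without adult control 1 or adult LPS 1 or 4 (-0.30 to -0.18, adjusted p up to 0.10). Adult LPS+MV read 25.9, 44.2, 29.8 and 35.1, at the level of the controls (-0.02 ± 0.08, adjusted p = 0.88) and above all MV arrays (0.30 ± 0.08, adjusted p = 0.0084; 0.22 and adjusted p = 0.053 without adult LPS+MV 2). Its juvenile values of 18.0 to 35.7 passed against control in no treatment.

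In the untreated lung, 4 of the 8 IRF genes were higher in adults, where 15.1% of all 13089 genes were higher and 10.1% lower. Besides Irf8 these were Irf5 (0.54 ± 0.09, adjusted p = 7.1e-05), Irf1 (0.39 ± 0.14, adjusted p = 0.036) and Irf4 (0.24 ± 0.08, adjusted p = 0.029). Irf1 ended without juvenile control 1 or 4 or adult control 1, 2 or 3 (0.34 to 0.44, adjusted p up to 0.095), and Irf4 without juvenile control 1 or adult control 1 or 4 (0.18 to 0.30, adjusted p up to 0.13). Array weights ended both (0.34, adjusted p = 0.055, and 0.18, adjusted p = 0.066). Irf2, Irf3, Irf7 and Irf9 gave 0.07 to 0.20 (adjusted p of 0.16 to 0.61).

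Markers of some of the cells that carry Irf8, Irf5 and Irf4 moved along with these differences and those of others did not. Of 9 monocyte and interstitial macrophage markers, 7 were higher in adult controls, where 15.1% of all genes were higher. Their summed intensity was 2089 to 2331 in juvenile against 3305 to 4390 in adult controls. Of 6 B cell markers tested, 5 were higher, with sums of 661.9 to 951.6 against 1503 to 3194. In adult MV, where Irf8, Irf5 and Irf4 fell, the sums were 2711 to 3148 and 974.3 to 1289, both below every adult control. There 3 monocyte markers were lower and 1 higher, and 4 B cell markers were lower (background 24.3% lower, 7.17% higher). The neutrophil list ran from 1100 to 4173 in juvenile and from 2988 to 24130 in adult controls.

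Conventional dendritic cell sums were 408.6 to 571.9 in juvenile and 426.4 to 566.3 in adult controls, and 576.4 to 742.7 in adult MV, above every adult control. Plasma cell sums were 2868 to 3350 and 3113 to 3466 in the controls and 3616 to 4001 in adult MV. Alveolar macrophage sums were 4738 to 8301 and 6557 to 8201 in the controls and 7468 to 7914 in adult MV. These lists overlapped between the control ages, and none of their sums was lower in adult MV, where Irf8, Irf5 and Irf4 fell. Plasmacytoid dendritic cell sums, 1440 to 1562 in adult controls, were 1294 to 1370 in adult MV. T and natural killer cell sums were 432.5 to 489 in juvenile and 799.1 to 1053 in adult controls, and 874.8 to 981.1 in adult MV. In adult LPS+MV, where Irf8 and Irf4 stood at control level, the monocyte and macrophage sum was 2720 to 3986. The B cell sum there was 808.9 to 6049.

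In juvenile LPS, where Irf8 reached 216 to 259.9 and 9.58% of all genes were higher, the monocyte and macrophage sum was 2231 to 2467. Of its 9 markers 2 were higher (Adgre1 at 0.41 ± 0.10 and Ccr2 at 0.96 ± 0.35). The B cell sum was 918.2 to 1026, with 0 of 6 markers past the threshold in limma and 1 at an unadjusted p under 0.05. The conventional dendritic cell sum was 1373 to 2317 against 408.6 to 571.9 in controls, with 4 of 7 markers higher. These were the chemokine genes Ccl17 (3.31 ± 0.20) and Ccl22 (2.43 ± 0.16), which carried most of the sum, Cd209a (0.60 ± 0.20) and the lineage factor Zbtb46 (0.44 ± 0.14). Plasmacytoid dendritic cell markers summed to 1400 to 1831 against 1423 to 1643, with 0 of 5 past the threshold in limma and 1 at an unadjusted p under 0.05.

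In adult LPS, where Irf8 overlapped its controls, the monocyte and macrophage sum was 3086 to 3655, with 4 of 9 markers lower. The B cell sum was 1399 to 1761, with 1 of 6 lower, beside 23.0% of all genes. The dendritic cell list again had 4 markers higher (background 12.9%), with Ccl17 at 3.70 ± 0.20, Ccl22 at 2.09 ± 0.16, Cd209a at 0.88 ± 0.20 and Zbtb46 at 0.57 ± 0.14, and Ccr7 lower (-0.35 ± 0.12). The neutrophil sum was 7186 to 8848 in juvenile and 21490 to 35750 in adult LPS. The part of these cell types in the differences of Irf8, Irf5 and Irf4 was not tested.

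Counted over the family, LPS raised 6 of 8 IRF genes in juveniles, all 6 without overlap (Irf1, Irf2, Irf5, Irf7, Irf8 and Irf9). Of all genes, 9.58% passed upward, 13.3% downward, and 10.2% lay above control without overlap. In adults 4 passed upward (Irf1, Irf5, Irf7 and Irf9, background 12.9%) and 1 downward (Irf4, background 23.0%). LPS+MV raised the same 6 genes in juveniles (background 10.8% higher, 20.5% lower) and 3 in adults (Irf1, Irf5 and Irf9, background 14.8%), with Irf3 lower in adults (background 27.3%). The median log2 change of the 8 genes was 0.72 in juvenile LPS and 0.35 in adult LPS, beside medians of -0.03 and -0.04 over all genes.

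MV alone raised 1 IRF gene (Irf2) and lowered 1 (Irf3) in juveniles, with backgrounds of 4.41% and 6.45%. In adults it lowered 4 (Irf3, Irf4, Irf5 and Irf8), with backgrounds of 24.3% lower and 7.17% higher. Each direction in adult MV is read against the large share of all genes that were lower there. Adding LPS to ventilation raised 5 genes in juveniles (Irf1, Irf5, Irf7, Irf8 and Irf9, background 6.93% higher, 7.78% lower) and 7 in adults, all but Irf3 (background 12.0% higher, 5.34% lower). Adding ventilation to LPS lowered 2 in juveniles (Irf3 and Irf7, background 9.45% lower, 5.97% higher) and 1 in adults (Irf3, background 3.35% lower, 3.69% higher). The comparisons within an age share their control arrays.

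**Figure D3:**
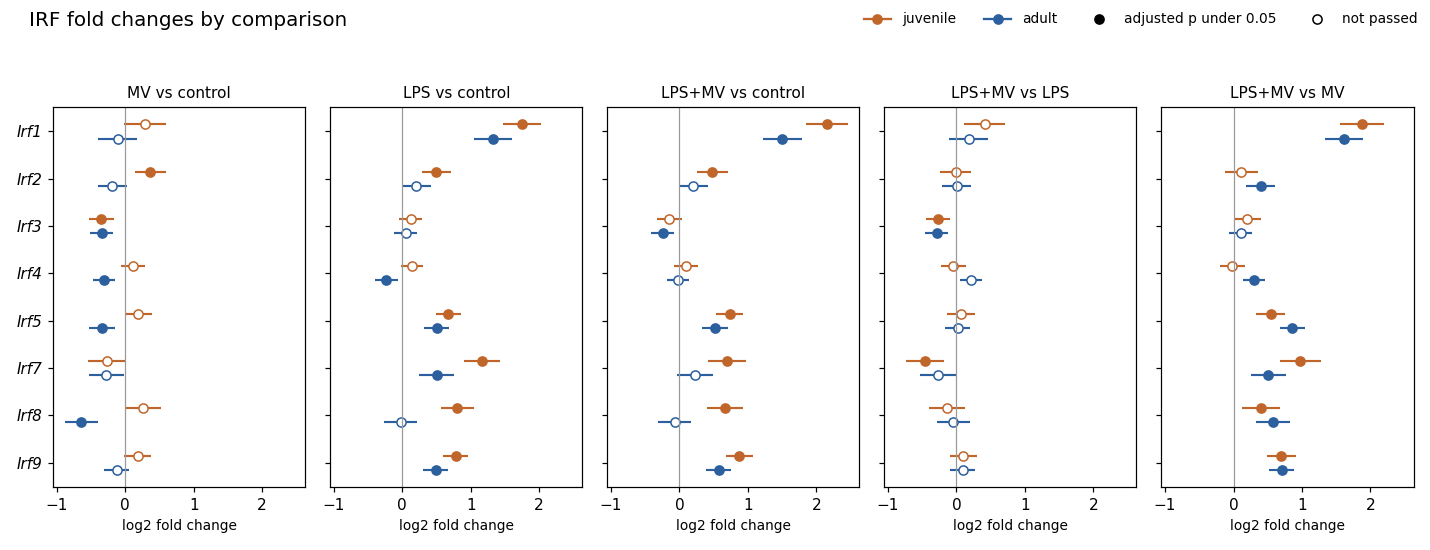
Log2 fold changes of the 8 IRF genes in 5 comparisons, juvenile in orange and adult in blue; bars are 95% intervals and filled points passed at an adjusted p under 0.05. Irf1, Irf5 and Irf9 rose with LPS and LPS+MV at both ages, while Irf8 rose against control only where juveniles are plotted and fell in adult MV.

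Whether LPS and ventilation added up was tested as an interaction within each age. In adults 2 of 8 genes passed, both upward, where 5.50% of all genes passed upward and 1.66% downward. These were Irf8 (0.60 ± 0.17, adjusted p = 0.031) and Irf4 (0.53 ± 0.11, adjusted p = 0.0062), which fell with ventilation alone and stood at control level with LPS+MV. The Irf8 interaction missed the threshold without adult control 2 or 3, adult MV 3 or 4, adult LPS 3 or adult LPS+MV 3 (0.51 to 0.65, adjusted p up to 0.065) and with quantile normalization (0.48, adjusted p = 0.075), and its second probe set gave 0.53 ± 0.16 (adjusted p = 0.046). In juveniles 0 of 8 passed in limma (background 0.336% higher, 0.413% lower). At an unadjusted p under 0.05 in limma there were 2, namely Irf2 (-0.38 ± 0.16, adjusted p = 0.31) and Irf8 (-0.40 ± 0.18, adjusted p = 0.37).

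The differences between ages were all negative where they passed, so the log2 change in adults lay below that in juveniles. For MV they were Irf8, Irf5, Irf2 and Irf4 (4 of 8 lower, background 4.84% lower, 1.30% higher), with Irf4 at -0.43 ± 0.12 (adjusted p = 0.029), which ended without juvenile control 1, juvenile MV 1 or 3, adult control 1 or adult MV 4 (-0.49 to -0.35, adjusted p up to 0.073) and with a term for Xist (-0.47, adjusted p = 0.073). For LPS they were Irf8 and Irf7 (background 2.38% lower, 1.31% higher), and for LPS+MV Irf8 alone (background 1.25% lower, 0.856% higher). Irf1 gave -0.42 ± 0.19 for LPS (adjusted p = 0.26) and -0.65 ± 0.20 for LPS+MV (adjusted p = 0.079), the latter passing without adult LPS+MV 3. All 3 age differences use the same 8 control arrays, and Irf8, Irf5, Irf4 and Irf1 differed between those controls.

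Upstream of the IRFs, the interferons themselves were hardly measurable. Of 12 ligand genes, 8 had a probe set with a single symbol and 2 (Ifna1 and Ifna2) passed the filter on low values. Ifnb1 and Ifng were below the filter. In limma, 0 of the 2 passed in any of the 16 comparisons, also at an unadjusted p under 0.05 (0), and in juvenile LPS they gave 0.10 ± 0.07 and 0.00 ± 0.08.

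Receptor and JAK-STAT genes rose in juvenile LPS in 11 of 12 tested (median log2 change 0.48, background 9.58%). In adult LPS 6 of 12 rose (median 0.22, background 12.9%). The smallest p-values were those of Il10rb (0.98 ± 0.06 juvenile, 0.55 ± 0.06 adult) and Ifngr2 (0.97 ± 0.07 and 0.54 ± 0.07), signalling chains of the interleukin-10 and interferon-γ receptors, and Jak2 (0.85 ± 0.08 and 0.91 ± 0.08) and Stat3 (0.88 ± 0.11 and 0.51 ± 0.11). Stat2, the partner of IRF9, rose in juveniles (0.87 ± 0.12, adjusted p = 1.7e-06), and adults gave 0.24 ± 0.12 (adjusted p = 0.12). Its age difference of -0.64 ± 0.16 passed (adjusted p = 0.027), as did those of Il10rb and Ifngr2, both -0.43. In adult MV, 5 of the 12 fell, where 24.3% of all genes did, among them both chains of the type I receptor, Ifnar1 (-0.26 ± 0.08, adjusted p = 0.017) and Ifnar2 (-0.27 ± 0.06, adjusted p = 0.0021).

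Among 16 sensors, adaptors and kinases that feed IRF3, IRF5 and IRF7, 8 rose in juvenile LPS (background 9.58%) and 10 in adult LPS (background 12.9%). In adults 1 was lower (background 23.0%). Sting1, the adaptor of cytosolic DNA sensing, rose by 1.69 ± 0.09 and 1.13 ± 0.09, and Myd88, the adaptor upstream of IRF5, by 1.57 ± 0.12 and 1.30 ± 0.12. Ifih1, the RNA sensor MDA5, rose by 1.30 ± 0.11 in juveniles and 0.59 ± 0.11 in adults. The kinase gene Ikbke rose by 0.69 ± 0.07 and 0.93 ± 0.07. Mavs, the adaptor of RNA sensing, was the gene that fell in adults (-0.51 ± 0.08, adjusted p = 9.7e-06; juvenile -0.19 ± 0.08, adjusted p = 0.081). The age difference for LPS passed downward for 3 of 16 (Ifih1 -0.72, Sting1 -0.56 and Dhx58 -0.53), beside 2.38% of all genes.

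Of 16 partners and inhibitors of IRFs, 10 rose in juvenile LPS (background 9.58%). In adult LPS 8 rose and 2 fell (background 12.9% higher, 23.0% lower). Usp18, which restrains the type I receptor, had group means of 114.7 ± 21.7 (SD, n = 4) in juvenile controls and 646.7 ± 149.6 (SD, n = 4) after LPS, against 179 ± 17.8 and 326.4 ± 76.3 (SD, n = 4 each) in adults. The Usp18 rise was 2.19 ± 0.17 in juveniles and 0.74 ± 0.17 in adults, and the age difference -1.45 ± 0.24 (adjusted p = 6.7e-04). Trim21 and Trim30a, ubiquitin ligases of the innate response, gave age differences of -0.80 ± 0.19 and -0.83 ± 0.21 (adjusted p = 0.017 and 0.027). Batf, a binding partner of IRF4 and IRF8, rose at both ages (1.34 ± 0.12 and 1.38 ± 0.12, with an age difference of 0.03 ± 0.17), and Batf3 rose by 0.59 ± 0.10 at each. Socs3, the inhibitor of JAK signalling, rose by 2.82 ± 0.29 and 2.61 ± 0.29. Irf2bp1, a co-repressor of IRF2, fell in adults (-0.47 ± 0.08, adjusted p = 2.1e-05) and gave -0.16 ± 0.08 in juveniles (adjusted p = 0.12). In adult MV, Spi1 (PU.1, the partner of IRF4 and IRF8) fell by 0.62 on the log2 scale (-0.62, adjusted p = 0.0059).

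Known IRF target genes were taken as a list of 33, of which 30 were tested. Of 25 with an upstream window in the RefSeq table, 11 hold the ISRE core, in 37.9% of their 29 windows. The sites of 5 targets that rose are shown with 10 flanking bases each, the core in capitals, on the strand that carries it.
Ifit1: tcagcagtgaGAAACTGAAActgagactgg
Ifit3: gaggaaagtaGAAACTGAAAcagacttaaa
Cxcl10: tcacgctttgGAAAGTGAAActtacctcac
Irgm1: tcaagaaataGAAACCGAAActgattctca
Gbp2: ttaagacagtGAAAGTGAAActaaaagagt

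The end of each core farther from the gene start lies 85 (Ifit1), 122 (Ifit3), 213 (Cxcl10), 24 (Irgm1) and 59 (Gbp2) bases upstream of it. The windows, with the strand of the gene, are chr19:34640639-34640888 (plus strand), chr19:34583279-34583528 (plus), chr5:92348890-92349139 (minus), chr11:48871421-48871670 (minus) and chr3:142620413-142620662 (plus) of GRCm38.p6. The Ifit1, Ifit3 and Gbp2 sites are printed from the strand opposite to the gene, those of Cxcl10 and Irgm1 from the strand of the gene. Cxcl10, the interferon-induced chemokine for T cells, went from a mean of 19.5 ± 2.86 (SD, n = 4) to 4467 ± 1131 (SD, n = 4) in juvenile LPS and from 30.4 ± 14.4 to 2267 ± 545.4 (SD, n = 4 each) in adult LPS. Its log2 changes were 6.41 ± 0.22 and 5.19 ± 0.22. The antiviral Ifit1 rose by 3.69 ± 0.20 and 2.89 ± 0.20, and Ifit3 by 3.22 ± 0.20 and 1.52 ± 0.20. Irgm1 and Gbp2, GTPases of cell-autonomous defence, rose by 2.06 ± 0.22 and 2.71 ± 0.28 in juveniles and by 1.37 ± 0.22 and 1.31 ± 0.28 in adults.

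Over the whole list, 22 of 30 targets rose in juvenile LPS and 18 in adult LPS, and none was lower in limma, adjusted or at an unadjusted p under 0.05. Among all genes, 9.58% rose and 13.3% fell in juvenile LPS, and 12.9% rose and 23.0% fell in adult LPS. The median log2 change of the targets was 1.12 and 0.62. In juvenile LPS+MV 21 targets rose (background 10.8%) and in adult LPS+MV 17 (background 14.8%). The age difference for LPS passed downward for 6 of 30 (background 2.38%): Ifit3 (-1.69 ± 0.29, adjusted p = 9.3e-04), Cmpk2 (-1.46), Gbp2 (-1.40), Ifit2 (-1.35), Oasl2 (-1.32) and Cxcl10 (-1.22). For LPS+MV it passed downward for Ifit3 (-1.41), Ifit1 (-1.26) and Ifit2 (-1.05), beside 1.25% of all genes. In adult MV 4 of 30 targets fell, among them Rsad2 (-0.96) and Oasl2 (-0.68), where 24.3% of all genes did, so the share of the targets was below that background. In juvenile MV 2 of 30 fell (Rsad2 at -0.93 and Isg20 at -0.50) and Ifit3 rose (0.70), beside 6.45% and 4.41% of all genes.

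**Figure D4:**
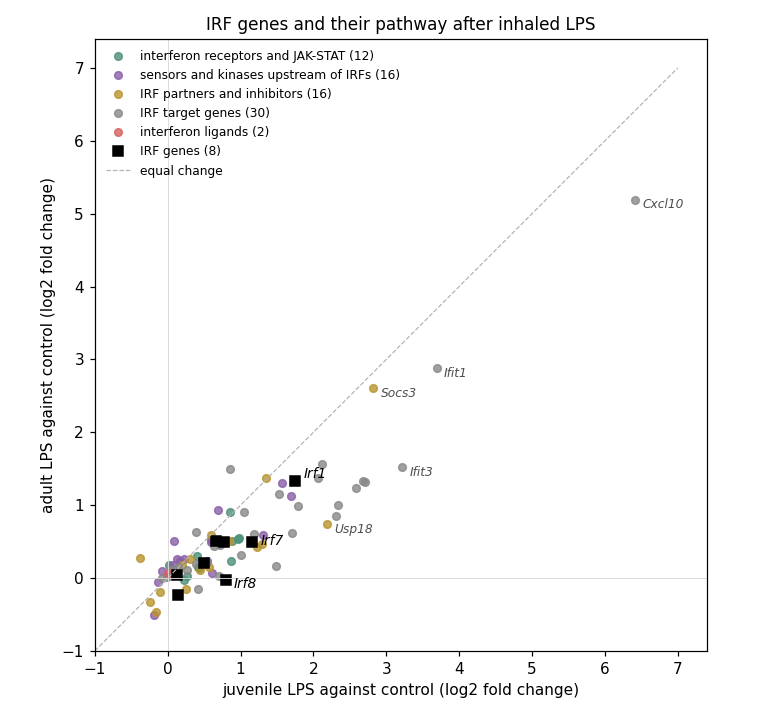
Log2 fold change after LPS against control in juveniles (horizontal) and adults (vertical) for the 8 IRF genes (squares) and the genes tested of the 5 pathway lists (dots, number in the legend); the dashed line marks equal change. Cxcl10 lies at 6.41 and 5.19, Irf1 at 1.75 and 1.33, and Irf8 at 0.80 and -0.02, below the line.

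Ordered by group mean, the levels of most groups ran into each other. For Irf1 the order was juvenile controls, adult MV, juvenile MV, adult controls, adult LPS, juvenile LPS, adult LPS+MV and juvenile LPS+MV, and the last 4 groups lay above the first 4 without overlap. For Irf5 the adult LPS (mean 125.7) and adult LPS+MV (mean 127.3) groups lay above all others without overlap, the next being juvenile LPS+MV (mean 95.4). Irf7 ran from juvenile MV (mean 54.5) to juvenile LPS (mean 202.8), with no step that separated all groups below from all above. For Irf2, Irf3, Irf4, Irf8 and Irf9 every group overlapped the next in the order. Irf8 was lowest in juvenile controls (mean 124.2) and highest in adult controls (mean 271.3), Irf9 lowest in adult MV (mean 164.9) and highest in juvenile LPS+MV (mean 342.7). Irf2 ran from juvenile controls to juvenile LPS, Irf3 from juvenile MV (mean 230.4) to adult LPS (mean 337.8), and Irf4 from adult MV to adult controls.

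The shape of each gene across the 8 group means was compared with 1295 genes whose means span at least 1 log2 unit. These correlations describe 8 points from the same 30 arrays and carry no test. Irf9 was most like Ifit1 (r = 0.988), Irgm1 (0.986) and Ifngr2 (0.978). Irf7 was most like Trim21 (0.990), Plxnb2 (0.982) and Usp18 (0.979). Irf1 was most like Bcl3 (0.995), Msr1 (0.992) and Rnd1 (0.991). Irf5 was nearest to Syk (0.994), Rab32 (0.986) and Bid (0.982), and Irf8 to Fcer1g (0.965), B4galnt1 (0.956) and Lst1 (0.955). Irf2 was nearest to Stfa2l1 (0.926), Tslp (0.920) and Cxcl9 (0.915), Irf3 to Rnf145 (0.946), Tubb4b (0.927) and Ackr3 (0.908), and Irf4, with no close match, to Zfp36l1 (0.667), Sema6d (0.599) and Hhex (0.595). Within the family the closest pair was Irf1 and Irf9 (0.969) and the least alike Irf2 and Irf3 (0.126).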

How the data were processed

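The authors deposited 1 intensity per probe set and array on a linear scale, with array medians close together. MAS5 is named, per the submitters' processing notes, while the way probes were summarised and scaled is not given in the sources used here. Symbols came from the platform annotation. A probe set was kept when it exceeded the median of the array on 3 or more arrays (24825 of 45037). Values were taken as log2(intensity + 32), and the probe set with the highest mean stood for a gene (13089 genes). A linear model with 1 mean per group used all 30 arrays (limma 3.58.1 under R 4.3.3; lmFit, then eBayes with an intensity trend; 22 residual degrees of freedom). Tests were two-sided, adjusted by Benjamini and Hochberg within each of 16 comparisons, threshold 0.05. The procedure was tested on simulated data. Intervals are 95%, and their width is set by how few arrays a group has. Each array is 1 animal.

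The members and the gene lists were chosen with earlier results of these data known. All 8 members are named, with up to 4 genes of smallest p per pathway list in juvenile and in adult LPS, other list genes with their value, and for each member the 3 genes of highest correlation. The alternatives tried were no filter, quantile normalization, probe set means, a pseudocount of 1, no trend, array weights and the compared groups alone. A replicate block, an Xist term and each array left out were also tried. A further alternative took each probe set as a row and kept the smallest p of a gene in each comparison, so it could hardly end a call. Fits without 4 arrays that stand apart, or without 2 with high heat shock genes, were added after seeing the data. Figures used matplotlib 3.10.9.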

Additional observations from a re-analysis of the deposited data

Results flagged for a closer look

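Among 48 sets of 4 arrays (8 genes in the 6 groups of that size), 2 held an array far from the others, where chance gives about 1 in 20. Irf1 on adult MV 2 was 634.6, against 481 to 495.8 on the other 3 arrays. Irf7 on adult control 3 was 108, against 75.4 to 80.7 on the other 3.

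Of 40 tests of a difference between effects, 9 passed. Of all genes, 5.50% passed upward and 1.66% downward for the adult LPS by MV interaction. For age by MV 4.84% passed downward, for age by LPS 2.38% and for age by LPS+MV 1.25%. Upward these shares were 1.30%, 1.31% and 0.856%. In juveniles the interaction passed for 0.336% upward and 0.413% downward. Several of the IRF calls ended without single arrays or under other settings, as given above. Irf8 accounts for 4 of them: its response differed between ages by -0.90 for MV, -0.82 for LPS and -0.73 for LPS+MV, and its LPS by MV interaction in adults was 0.60 (log2 units, adult minus juvenile for ages). Irf4 accounts for 2, at 0.53 for the adult LPS by MV interaction and -0.43 for age by MV. The age by MV difference was -0.53 for Irf5 and -0.56 for Irf2, and the age by LPS difference was -0.66 for Irf7. The 3 age differences share their controls, where Irf8, Irf5 and Irf4 were already higher in adults. Causes were not tested.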

How the results depend on the processing

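Of 2808 member values recomputed, 0 reversed a called direction, 103 calls were lost and 26 gained; the cause was not tested. With each array left out, the number of IRF genes called ran from 2 to 4 between controls, 1 to 2 in juvenile MV, 0 to 3 in juvenile LPS+MV against LPS, 0 to 2 in adult LPS+MV against LPS, 1 to 3 for the adult LPS by MV interaction, and for age by MV, LPS and LPS+MV from 2 to 4, 1 to 3 and 0 to 2. It was 6 throughout in juvenile LPS and LPS+MV and 4 in adult MV.

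Of 192 counts under other settings, 172 stayed within 1.5 times. These include the counts with each probe set as a row, where the smallest p of a gene was kept. Quantile normalization gave 1 for the adult LPS by MV interaction and 1 for age by LPS. For juvenile LPS+MV against LPS, no filter, probe set means, the compared groups alone and the Xist term each gave 1. For adult LPS+MV against LPS, probe set means and the Xist term gave 0. Array weights gave 2 between controls. The compared groups alone gave 0 in juvenile MV, 1 for age by LPS and 0 for age by LPS+MV. The Xist term gave 2 in adult MV, 1 for age by MV and 2 for age by LPS+MV. Fits without the 4 arrays least like their groups, or without the pair highest in heat shock genes, gave 1 in juvenile MV and 0 for age by LPS+MV either way.

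The replicate numbers are shared by number only: same-numbered arrays of different groups correlated at a median of 0.031 (99 pairs, -0.23 to 0.42) and others at -0.012 (294 pairs). With the replicate block, the count in juvenile LPS+MV against LPS was 1, as the Irf3 call was lost (-0.26, adjusted p = 0.052), and Irf7 passed in adult MV (-0.28, adjusted p = 0.048). Irf4 lies near the array medians, so its background limits its changes.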
